A study of Mus musculus with 18 samples.

Results

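The response of the Hmga2 knockout clone KO#2 to induction into epiblast-like cells (EpiLCs) was compared with the response of wt cells, gene by gene. Mouse induced pluripotent stem cells were sequenced at 0 h and 24 h in wt cells and in KO#2, with 3 biological replicates in each of these 4 groups, so that 12 of the 18 libraries of the series entered the contrast. The remaining 6 libraries came from KO#1, another Hmga2 knockout clone, and were used in the same model. The wt group was a single clone labelled wt iPSC #1 and the KO#2 group a single clone labelled Hmga2 KO iPSC #2, so the genotype and the clone cannot be told apart. All 12 libraries carry the same treatment label, induction into EpiLC, also those taken at 0 h. Cells at 0 h grew on mitotically inactivated fibroblasts in medium with serum, leukemia inhibitory factor (LIF) and the inhibitors PD0325901 and CHIR-99021, whereas induction took place on Geltrex, without feeders, in N2B27 medium with Activin A and bFGF. The time point and the loss of the feeders, of serum and of the inhibitors therefore came together in both lines. For each gene the response difference was the log2 fold change from 0 h to 24 h in KO#2 minus the same fold change in wt cells, so that a gene that fell less in KO#2 and a gene that rose more in KO#2 both have a value above 0.

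Naive pluripotent stem cells are held by a network of transcription factors, among them Nanog, Esrrb, Tfcp2l1, Tbx3 and members of the Klf family, that LIF and the inhibition of MEK and of GSK3 keep active. Within a day of their withdrawal and of exposure to Activin A and FGF, mouse cells shut this network down and turn on formative genes such as Otx2, Fgf5, Dnmt3b and Pou3f1. Hmga2 encodes a small chromatin protein with AT-hooks that bind the minor groove of DNA, and its RNA and protein are known from embryonic cells.

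Hmga2 (ENSMUSG00000056758, chr10:120361275-120476469 of GRCm38, minus strand) was read in every library first. Hmga2 measured 17.4, 13.3 and 22.4 CPM in wt cells at 0 h, 5.87, 5.51 and 5.93 at 24 h, 4.10, 1.84 and 8.25 in KO#2 at 0 h and 10.5, 3.02 and 3.48 at 24 h (CPM, counts scaled to library size with TMM factors). The KO#2 libraries lay below every wt library at 0 h and overlapped them at 24 h. Its fitted difference between KO#2 and wt cells was -1.90 ± 0.62 (adjusted p = 0.0230) at 0 h and -0.04 ± 0.60 (adjusted p = 0.966) at 24 h, each as a log2 fold change with its standard error from the quasi-likelihood test of edgeR with Benjamini-Hochberg adjustment, the test behind every adjusted p below. The RNA level at 24 h thus did not set KO#2 apart, and "KO#2" stands throughout for the libraries labelled so. Its response difference was 1.86 ± 0.86 (adjusted p = 0.198).

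Total counts of the 12 libraries ran from 3466436 to 23872837, with the lowest in wt cells at 0 h, and 3 counts corresponded to 0.116 to 0.984 CPM over the series. Libraries differed in what they contained. At 24 h, protein-coding genes held 41.6 to 63.4% of the counts in wt cells and 82.3 to 84.7% in KO#2, and 12 abundant noncoding RNAs (7SK, 7SL, RNase P and MRP RNAs and others) held 25.2 to 41.4% and 5.52 to 9.40%. At 0 h the same noncoding RNAs held 6.84 to 15.0% in wt cells and 7.62 to 13.8% in KO#2. Their summed share therefore rose with induction in wt cells and not in KO#2, and its part in the results below was not tested, apart from a fit on protein-coding genes alone that stands beside them. Markers of fibroblasts (13 genes, among them Col1a1, Col3a1, Lox and Thy1) summed to 159 to 557 CPM in wt cells at 0 h and 29.3 to 45.9 at 24 h, and to 462 to 1209.8 and 106 to 302 CPM in KO#2. At 24 h, 11 of the 13 were called higher in KO#2, against 21.3% of all genes tested, and Dcn was at 0 in all wt libraries at 0 h. The part of these cells in the results was not tested. In bulk RNA, fewer cells of a type and less RNA per cell cannot be told apart.

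Of 16619 genes tested, 244 responded differently in KO#2 and wt cells, 1.47% of those tested. The difference was above 0 in 158 genes (0.951%) and below 0 in 86 (0.517%). Protein-coding genes made up 152 of the 158 and 78 of the 86. The smallest called difference was 1.19 on the log2 scale above 0 and -1.27 below 0, and the medians were 2.30 and -2.46. In the same fit, 8429 genes (50.7%) changed between 0 h and 24 h in wt cells and 4324 (26%) in KO#2. The median difference over all tested genes was -0.02. On protein-coding genes alone, with library sizes computed from them, 469 genes were called, 227 of the 244 among them, and 80.0% of the calls were above 0 against 64.8%. Scaled by library size only, without TMM, the median of all genes moved to 0.57 and 801 genes were called, 94.4% of them above 0. Without a filter on low counts 1717 genes were called, 53.6% of them above 0, and the DESeq2 Wald test called 1409, 65.7% of them above 0.

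The count depended on single libraries. Without KO#2 24 h replicate 3 it was 563 and without wt 0 h replicate 2 it was 460, while it was 51 without KO#2 0 h replicate 2, 52 without wt 24 h replicate 2, 77 without wt 0 h replicate 3, 85 without wt 24 h replicate 1, 96 without KO#2 24 h replicate 1, 125 without KO#2 24 h replicate 2 and 129 without wt 0 h replicate 1. Among 72 called genes followed through the alternatives, none changed direction in 22 other fits, and 18 stayed called in all of the fits that tested them. These 18 were Tbx3, Chac1, Vegfa, Kit, Bhlhe40, Col9a2, Notch4, Eomes, Sox11, Nptx2, Spry1, Spry2, Scd1, Xaf1, Tmem44, Aldh1a3, Syt13 and Car2. Of the genes named here, Sema5b, Sgcb, Aldh1l2, Gpt2, Klf2, Tmem106a, Bcl3, Cdkn1c, Lgals1, Slc1a4, Trib3, Car4, E2f2, Kbtbd11, Klf5, Klb, Sgk1, Bdh2, Klf4, Klf9, Loxl2, Lrrc15 and Slc7a1 kept their calls in at most 6 of the 12 fits that each left out 1 library. In counts thinned to the smallest total, all of these except Trib3, Klf5, Sgk1, Bdh2, Klf9 and Slc7a1 and Shisa8, Adm2, Pbld2, Prdm1, Cdkn1b, Dcn, Dpep2, Klf15, Nrros and Smyd1 were not called.

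**Figure D1:**
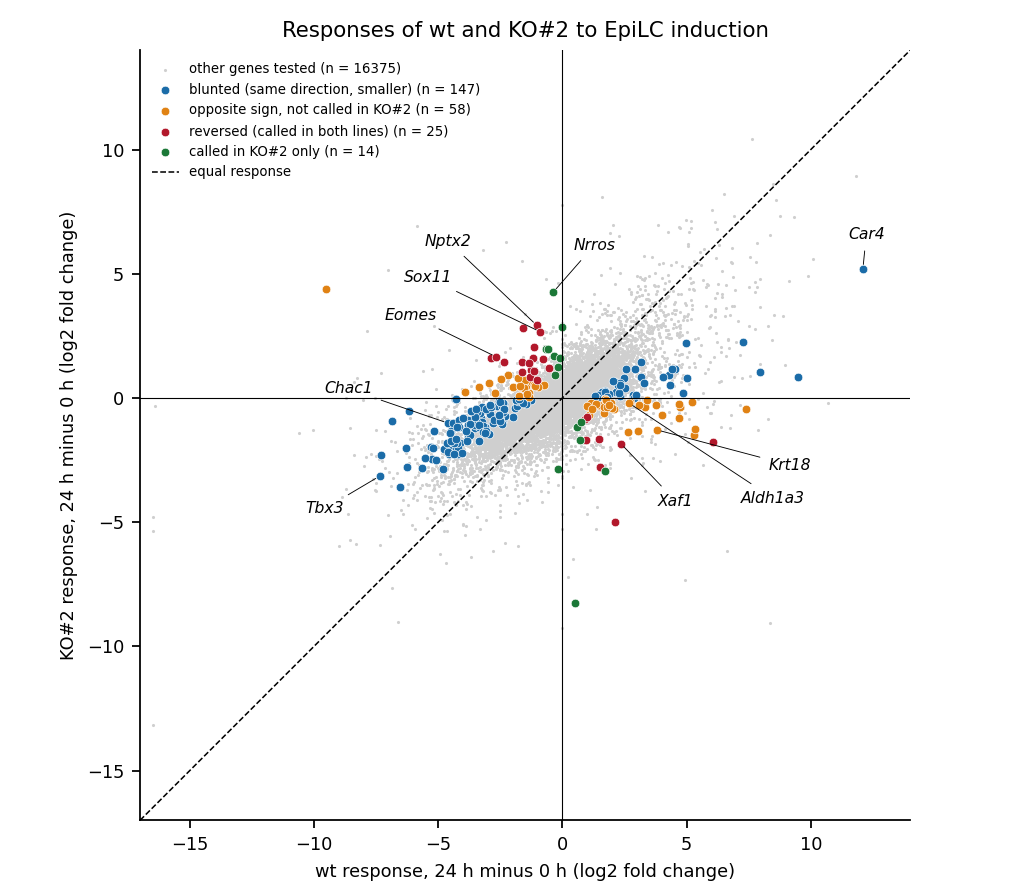
Log2 fold change from 0 h to 24 h in wt cells (x axis) and in KO#2 (y axis) for each of the 16619 genes tested, with the 244 genes of a different response coloured by class and the dashed line marking equal responses. The 147 blunted genes lie between the dashed line and the horizontal axis, and the 25 reversed genes lie in the quadrants where the signs differ.

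Sorted by what each line did, the commonest pattern was a smaller change in KO#2. Blunted genes, which changed in wt cells and moved the same way but less in KO#2, numbered 147, of which 108 fell in wt cells and 39 rose. A blunted gene reached in KO#2 a median of 27.1% of its wt log2 change, 31.2% for the falls and 16.0% for the rises, and at most 59.4%. In 68 of the 147 the change in KO#2 was itself called, in 18 more it had an unadjusted p under 0.05, and in 61 neither held. Opposite signs were found in 83 genes, in 25 of which KO#2's own change was called too (reversed genes, 17 falling in wt cells and 8 rising). Another 14 genes changed in KO#2 without a called change in wt cells (KO#2 only against wt cells), 8 up and 6 down. Among the 244 genes with a different response, 0 had a called wt change and a larger change in KO#2 in the same direction. All 150 genes above 0 with a called wt response fell in wt cells and all 80 below 0 rose. The wt libraries enter both the wt response and the difference, so this split is a description. With samples at 2 times, a change that came late cannot be told from one that was smaller, and no gene is called delayed here.

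The difference arose at different ends of the interval. KO#2 was called different from wt cells only at 24 h in 102 of the 244 genes, only at 0 h in 64, at both times with opposite signs in 60 and at both with one sign in 18. Over all genes tested, 38.1% were called at 0 h and 37.3% at 24 h. Pck2 and Aldh1a3 were among the genes called at 24 h only, and Sox11 and Krt18 among those called at 0 h only. A time without a call does not show that the lines were level at it.

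**Figure D2:**
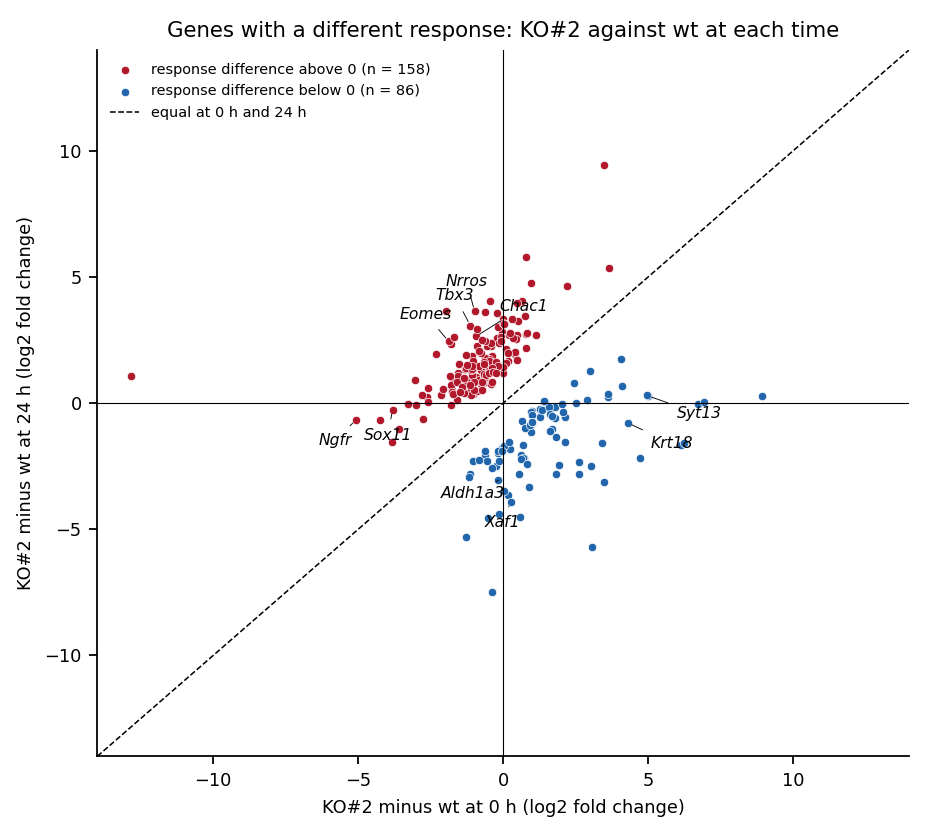
Log2 fold change of KO#2 against wt cells at 0 h (x axis) and at 24 h (y axis) for the 244 genes with a different response, in red where the response difference was above 0 (158 genes) and in blue where it was below 0 (86 genes). The distance from the dashed line is the response difference, and genes near the vertical axis had a small difference at 0 h.

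Naive transcription factors were among the blunted falls. Of 13 listed naive genes, all tested and 10 of them falling in each line, 4 were called and all 4 lay above 0 (0.951% of all genes did), 11 of 13 had a value above 0, and the median difference was 1.67. Tbx3, a T-box factor of the naive network, had the largest of these differences. Tbx3 measured 647, 339 and 573 CPM in wt cells at 0 h, 3.58, 3.31 and 2.59 at 24 h, 322, 132 and 259 in KO#2 at 0 h and 42.6, 29.6 and 8.21 at 24 h. All KO#2 libraries at 24 h lay above all wt libraries, although KO#2 had started lower at 0 h without a call (-1.13 ± 0.44, adjusted p = 0.0522). Its response difference was 4.21 ± 0.66 (adjusted p = 0.00551), made of a fall of 7.36 in wt cells and of 3.15 in KO#2 on the log2 scale, so that KO#2 covered 42.8% of the wt change.

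Klf4, Klf5 and Klf2, Krüppel-like factors that bind shared sites in naive cells, followed. Klf4 measured 363, 195 and 397 CPM in wt cells at 0 h, 4.46, 3.61 and 2.35 at 24 h, 195, 115 and 140.2 in KO#2 at 0 h and 18.9, 14.9 and 4.00 at 24 h. Klf5 measured 275, 111 and 157 CPM in wt cells at 0 h, 4.93, 4.11 and 5.56 at 24 h, 96.5, 52.8 and 73.0 in KO#2 at 0 h and 27.5, 20.1 and 8.21 at 24 h. Both were called lower in KO#2 than in wt cells at 0 h and higher at 24 h, with no overlap of the groups at 24 h for Klf5 and with 1 KO#2 library of 24 h, replicate 3, inside the wt range for Klf4. The response differences were 2.94 ± 0.62 (adjusted p = 0.0231) for Klf4 and 3.21 ± 0.69 (adjusted p = 0.0260) for Klf5. Klf2 ran from 146–343 to 9.21–13.7 CPM in wt cells and from 58.6–86.5 to 7.56–20.3 CPM in KO#2, with a difference of 2.11 ± 0.51 (adjusted p = 0.0447). For Klf2 only the 0 h levels were called different between the lines (-1.73 ± 0.36, adjusted p = 0.00174 at 0 h, 0.37 ± 0.36, adjusted p = 0.437 at 24 h). The response difference of Klf2 was not called in a fit on the 12 libraries of wt cells and KO#2 alone.

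The other 9 naive genes did not pass the test, although the DESeq2 Wald test, with 1409 calls over all genes, called 9 of the 13 and a fit scaled by library size only, with 801 calls, called 8. Nanog measured 393–540.2 CPM at 0 h in wt cells and 352–552 in KO#2, and at 24 h 27.5, 19 and 12.0 in wt cells against 60.8, 106 and 24.6 in KO#2, with a response difference of 1.82 ± 0.66 (adjusted p = 0.125). Tfcp2l1 had 1.67 ± 0.48 (adjusted p = 0.0760) and Esrrb 1.49 ± 0.47 (adjusted p = 0.0938). Zfp42, which encodes Rex1, went the other way at -0.51 ± 0.38 (adjusted p = 0.408), and the lowest value of the 13 was -2.08, also not called. In all 4 called genes, KO#2 24 h replicate 3 was the lowest of the 3 libraries of its group. Without it 8 of the 13 naive genes were called, and without any other single library of the 12 between 1 and 4. The count was 1 without wt 0 h replicate 3, wt 24 h replicate 2, KO#2 0 h replicate 2 or KO#2 24 h replicate 1 or 2, and 2 without wt 0 h replicate 1, wt 24 h replicate 1 or 3 or KO#2 0 h replicate 3. Over the 12 fits that each left out 1 library, Tbx3 kept its call in 12, Klf4 in 6, Klf5 in 4 and Klf2 in 2. On protein-coding genes alone 6 naive genes were called.

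Formative genes gave no call. Of 12 listed genes, 11 rose in wt cells (26% of all genes did) and 11 in KO#2 (12.7% did), 0 differed in response (2 with an unadjusted p under 0.05, 0 by DESeq2, 3 without the filter on low counts), 6 were above 0 and the median difference was 0.12. Dnmt3b, a de novo DNA methyltransferase, rose by 3.45 in wt cells and 2.83 in KO#2, with a difference of -0.63 ± 0.47 (adjusted p = 0.425). Fgf5 rose by 5.71 and 5.98, a difference of 0.27 ± 1.13 (adjusted p = 0.904). Otx2, which started higher in KO#2, had -1.55 ± 0.69 (adjusted p = 0.186). The core genes Pou5f1, Sox2, Sall4 and 4 more likewise had 0 calls of 7 (3 with an unadjusted p under 0.05, 2 by DESeq2), with a median of 0.51.

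**Figure D3:**
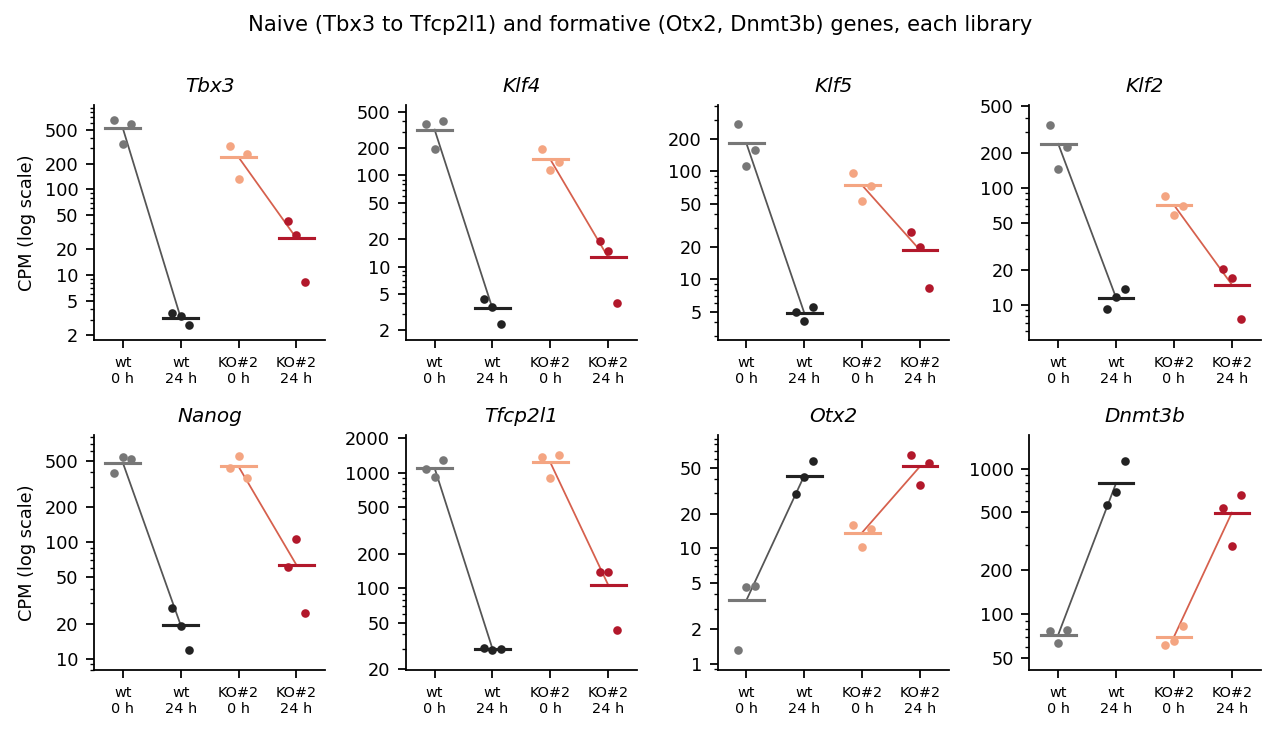
CPM of 6 naive and 2 formative genes in each of the 12 libraries (points, log axis), with group means as bars and a line joining 0 h and 24 h within each line. The wt points of Tbx3 and Klf5 at 24 h lie below all KO#2 points, while the wt and KO#2 points of Dnmt3b overlap at both times.

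Naive cells depend on LIF, which acts through Stat3, and Bcl3, a coactivator of NF-κB proteins listed with the Stat3 targets, was the 1 of 7 LIF-Stat3 genes called (1.47% of all genes were, and DESeq2 called 3 of the 7 and 1409 in all), with all 7 above 0 and a median of 1.27. It fell from 13.6–48.5 to 0.988–1.30 CPM in wt cells and from 10.4–10.6 to 1.52–4.37 in KO#2. The difference of 2.77 ± 0.63 (adjusted p = 0.0344) kept its call in 3 of the 12 fits leaving out 1 library. Bcl3 was not called in the fit on the 12 libraries alone. Further blunted falls, named after their values were seen, included transcriptional regulators and receptors. Bhlhe40, a circadian repressor, fell by 4.47 on the log2 scale in wt cells and by 1.33 in KO#2, with a difference of 3.14 ± 0.43 (adjusted p = 0.00190). Klf15 had 3.11 ± 0.46 (adjusted p = 0.00356), Klf9 1.51 ± 0.31 (adjusted p = 0.0201) and Prdm1, a repressor needed in germ cells, 1.86 ± 0.37 (adjusted p = 0.0185). Kit, the receptor of stem cell factor, and Cdkn1b, the cell cycle inhibitor p27, had 2.39 ± 0.39 (adjusted p = 0.00700) and 1.59 ± 0.30 (adjusted p = 0.0130). In each of these 6 genes all KO#2 libraries of 24 h lay above all wt libraries of 24 h.

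By the naming rule, the largest blunted falls beside Tbx3 with an average log2 CPM of at least 2 were Kbtbd11, Lrrc15 and Col9a2. Kbtbd11 had 0 counts in all wt libraries at 24 h, at least 4.62-fold lower than at 0 h against a floor of 3 counts per library, while KO#2 went from 7.58–14.9 to 2.48–8.36 CPM. Its fitted difference of 5.93 ± 1.30 (adjusted p = 0.0325) depends on that 0, kept its call in 4 of the 12 fits leaving out 1 library and was not called in the fit on the 12 libraries alone. Col9a2, a chain of collagen IX, measured 27.2, 10.6 and 13.7 CPM in wt cells at 0 h and 1.11, 0.701 and 0.679 at 24 h, against 4.84, 3.42 and 1.82 and 2.25, 4.06 and 3.39 in KO#2. The groups did not overlap at either time and changed places between them, with a difference of 4.25 ± 0.77 (adjusted p = 0.0130). Lrrc15, a membrane protein with leucine-rich repeats, fell by 6.31 in wt cells and 2.00 in KO#2 on the log2 scale, a difference of 4.31 ± 0.94 (adjusted p = 0.0275).

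Another set of blunted falls belonged to the amino acid response, which cells switch on through Gcn2 or Perk and the factor Atf4 when amino acids run short or proteins misfold. A list of 39 genes was drawn up after its members had been seen among the calls, so its count describes the calls and is no test. Of the 39, 10 were called above 0 and 0 below 0, 31 were above 0, and the median difference was 0.64. Over all 16619 genes, 0.951% were called above 0, 8179 were above 0 and the median was -0.02. The called genes cover glutathione breakdown (Chac1), the pseudokinase Trib3 that feeds back on Atf4, the secreted peptides Adm2 and Stc2, mitochondrial enzymes (Pck2, Aldh1l2, Pycr1, Gpt2) and the transporters of cationic and neutral amino acids Slc7a1 and Slc1a4. The motif that Atf4 binds together with C/EBP proteins, TGATGNAA on either strand, was searched in RefSeq promoters (GRCm38.p6, 250 bases before to 50 after each start). It was present in 5 of the 9 called genes that have a window and in 6 of the other 21, against 4.51% of 27025 genes. The 64 bases around it follow in the direction of transcription, for the 5 called genes that hold it, with the match in capitals. A match is a description of the sequence and not evidence of binding. The list was chosen as genes of this response, so its motif count beside that of all genes is no test either.
Chac1, chr2:119351021-119351084, plus strand: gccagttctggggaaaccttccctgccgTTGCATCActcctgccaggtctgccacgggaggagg
Trib3, chr2:152344011-152344074, minus strand: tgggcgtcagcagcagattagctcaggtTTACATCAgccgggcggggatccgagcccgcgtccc
Pck2, chr14:55540135-55540198, plus strand: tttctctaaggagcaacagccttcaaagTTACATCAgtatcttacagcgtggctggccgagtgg
Pycr1, chr11:120643816-120643879, minus strand: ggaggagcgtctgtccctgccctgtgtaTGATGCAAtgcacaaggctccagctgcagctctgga
Slc1a4, chr11:20332682-20332745, minus strand: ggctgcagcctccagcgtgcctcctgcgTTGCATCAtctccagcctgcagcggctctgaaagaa
The match in Trib3 begins 15 bases into the transcript and that in Slc1a4 4 bases before it, and those in Pck2 and Pycr1 both begin 103 bases upstream, with Chac1 at 193. Pycr1 carries the motif on the coding strand and the other 4 on the opposite one.

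Chac1 had the largest response difference of the genes whose promoters are printed. Chac1 measured 40.3, 46.5 and 99.3 CPM in wt cells at 0 h, 2.29, 3.51 and 2.04 at 24 h, 36.5, 32.8 and 28.6 in KO#2 at 0 h and 9.15, 18 and 21.3 at 24 h. Both lines fell, and every KO#2 library of 24 h was higher than every wt library of 24 h. The response difference was 3.58 ± 0.54 (adjusted p = 0.00435), with KO#2 covering 22.1% of the wt change. Pck2 measured 253, 139.5 and 166 CPM in wt cells at 0 h, 5.28, 6.61 and 12.4 at 24 h, 116, 122 and 126 in KO#2 at 0 h and 21.8, 72.0 and 41.9 at 24 h. Pck2, a mitochondrial PEP carboxykinase, was not called different at 0 h (-0.61 ± 0.42, adjusted p = 0.253), was 2.48 ± 0.45 (adjusted p = 0.000444) at 24 h with no overlap, and had a response difference of 3.09 ± 0.61 (adjusted p = 0.0175).

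Trib3 fell from 70.4–129 to 8.51–10.6 CPM in wt cells and from 45.9–54.9 to 14.4–32.7 in KO#2, with a difference of 2.43 ± 0.55 (adjusted p = 0.0324). Stc2 had 2.87 ± 0.54 (adjusted p = 0.0130) and Slc7a1 2.28 ± 0.49 (adjusted p = 0.0251). Pycr1 and Slc1a4 had 2.17 ± 0.44 (adjusted p = 0.0201) and 1.84 ± 0.43 (adjusted p = 0.0401), and Gpt2 and Aldh1l2 1.74 ± 0.42 (adjusted p = 0.0481) and 2.71 ± 0.67 (adjusted p = 0.0494). Over the 12 fits leaving out 1 library, Gpt2 and Aldh1l2 kept their calls in 2 and Trib3 and Slc1a4 in 3. For all 10 genes the KO#2 libraries lay above the wt libraries at 24 h without overlap. KO#2 covered between 15.9% (Stc2) and 43.1% (Aldh1l2) of the wt log2 change. At 0 h KO#2 was called lower for Pycr1 (-1.33, adjusted p = 0.00363), Trib3 (-1.11, adjusted p = 0.0296), Chac1 (-0.93, adjusted p = 0.0489) and Gpt2 (-0.83, adjusted p = 0.0363). No other of the 10 was called at 0 h. For Pycr1 and Gpt2 the lines differed by 0.84 and 0.90 at 24 h. Adm2, adrenomedullin 2, was near the detection level, at 0.0587–0.200 CPM in wt cells and 0.888–1.43 in KO#2 at 24 h, with a difference of 3.84 ± 0.77 (adjusted p = 0.0184).

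The other 29 genes of the list did not pass the test. Atf4 RNA itself had a difference of 0.20 ± 0.40 (adjusted p = 0.792), and Asns, asparagine synthetase and a standard target, of 0.58 ± 0.43 (adjusted p = 0.418). Ddit3, which encodes Chop, had 0.64 ± 0.57 (adjusted p = 0.508). Vegfa, the endothelial growth factor, was not on the list and was named after its values were seen. It went from 56.5–115 to 1.73–2.91 CPM in wt cells and from 53.9–109.9 to 12.9–16.6 in KO#2, a difference of 2.80 ± 0.45 (adjusted p = 0.00649). Leaving out 1 library at a time gave between 1 (without KO#2 0 h replicate 2) and 10 called members, with 2 without wt 24 h replicate 1 or 2, 4 without wt 0 h replicate 3 or KO#2 24 h replicate 2, 5 without wt 0 h replicate 1 and 6 without KO#2 0 h replicate 1 or 3. On protein-coding genes alone 11 were called.

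**Figure D4:**
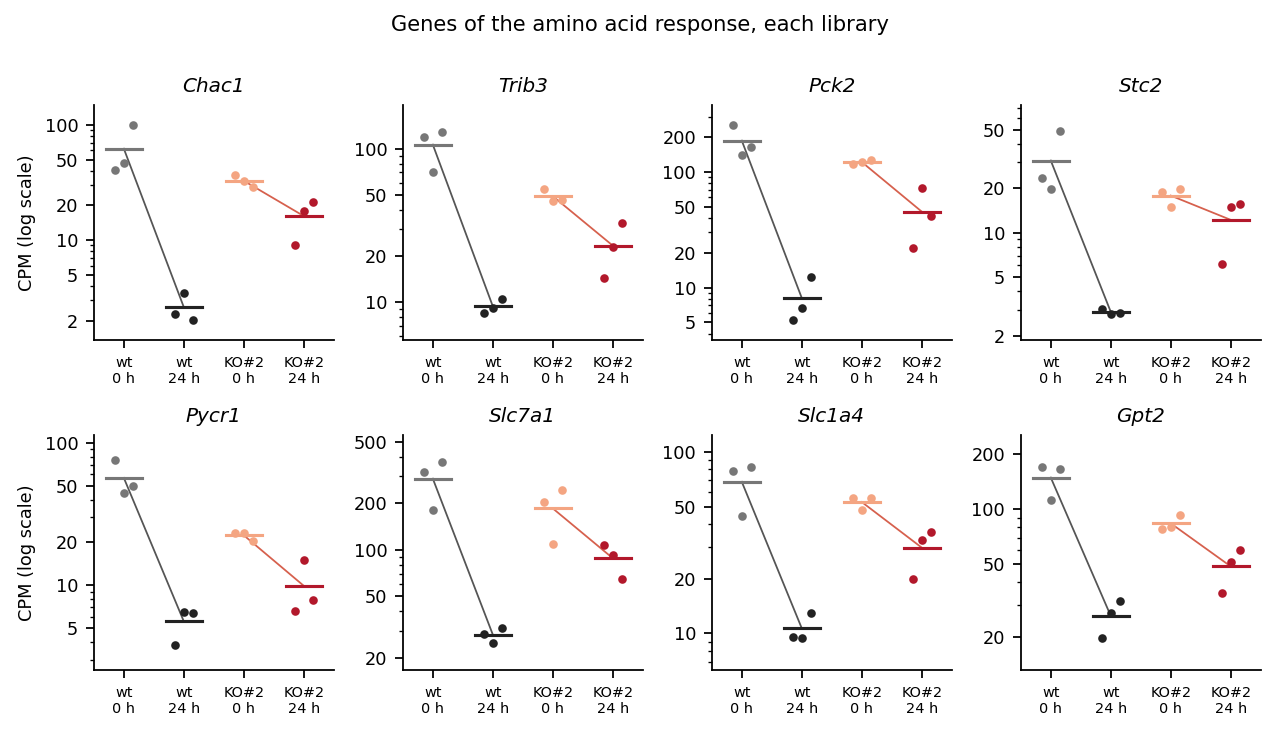
CPM of 8 called genes of the amino acid response in each of the 12 libraries (points, log axis), with group means as bars and a line joining 0 h and 24 h within each line. In all 8 the wt points of 24 h lie below the KO#2 points of 24 h.

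Reversed genes fell in one line and rose in the other. Eomes encodes a T-box factor of the primitive streak that responds to Nodal and Activin. Of 11 listed genes of the primitive streak, 2 had enough counts to be tested. Eomes was the 1 called, where 1.47% of all genes were, and the other tested gene had a difference of 1.00. Eomes measured 15.4, 6.79 and 12.0 CPM in wt cells at 0 h, 1.88, 1.7 and 1.67 at 24 h, 4.06, 2.56 and 2.49 in KO#2 at 0 h and 10.1, 11.3 and 7.43 at 24 h. Wt cells fell and KO#2 rose with no overlap between the times in either line, and KO#2 was below wt cells at 0 h and above them at 24 h. The response difference was 4.33 ± 0.49 (adjusted p = 0.000437), and KO#1 had one of 3.00 ± 0.49 (adjusted p = 0.0139) against the same wt libraries.

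Axin2, Spry1 and Spry2 are feedback genes of signalling that the 0 h medium also acts on, Axin2 of the Wnt pathway that GSK3 inhibition mimics and the Sprouty genes of FGF-ERK signalling that MEK inhibition blocks. Axin2 measured 44.3, 12.5 and 21.4 CPM in wt cells at 0 h, 9.21, 7.81 and 7.91 at 24 h, 8.82, 5.76 and 12.3 in KO#2 at 0 h and 39.9, 17.3 and 16.7 at 24 h. The levels separated by time in both lines and in opposite directions, with a response difference of 3.07 ± 0.60 (adjusted p = 0.0167). Spry2 measured 159, 97.3 and 144 CPM in wt cells at 0 h, 52.1, 49.8 and 60.5 at 24 h, 21.9, 19.8 and 17.7 in KO#2 at 0 h and 36.4, 37.4 and 32.8 at 24 h. KO#2 rose but stayed below every wt library, so that its 2.14 ± 0.35 (adjusted p = 0.00694) went with a start 2.75 log2 units lower at 0 h. Spry1 went from 10.0–15.4 to 3.93–7.35 CPM in wt cells and from 6.48–8.49 to 14–19.9 in KO#2, a difference of 2.23 ± 0.40 (adjusted p = 0.0130), and ended higher in KO#2.

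The lists around these genes held few other calls. Of 12 FGF-ERK feedback genes, 2 were called (both Sprouty genes, 4 by DESeq2) where 1.47% of all genes were, 10 were above 0 and the median was 1.09. Dusp6, the ERK phosphatase, rose by 2.36 in wt cells and 3.52 in KO#2 (1.16 ± 0.39, adjusted p = 0.106), and the ERK-driven factors Etv4 and Etv5 had -1.36 ± 0.50 (adjusted p = 0.132) and -0.12 ± 0.39 (adjusted p = 0.879). Of 10 Wnt targets tested 1 was called (2 by DESeq2), with 7 above 0 and a median of 1.12. Axin2 lost its call without wt 24 h replicate 2 and without KO#2 0 h replicate 2. Of 12 Nodal-Activin genes 0 were called (3 with an unadjusted p under 0.05, 1 by DESeq2), and of 15 immediate early genes 0 (7 with an unadjusted p under 0.05, 4 by DESeq2), 14 of which were above 0 with a median of 1.31.

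Sox11, a SoxC transcription factor, Nptx2 and Ngfr, named by the rule, and Nefm, named after its values were seen, also rose in KO#2 and fell in wt cells. Sox11 measured 79.4, 44.6 and 50.5 CPM in wt cells at 0 h, 29.3, 27.9 and 36.0 at 24 h, 3.49, 3.73 and 5.13 in KO#2 at 0 h and 29.8, 17.2 and 31.5 at 24 h. KO#2 lay below every wt library at 0 h, and at 24 h 2 of its libraries lay within the wt range and replicate 2 below it, with a response difference of 3.56 ± 0.38 (adjusted p = 0.000389). Nptx2 measured 35.4, 22.7 and 27.9 CPM in wt cells at 0 h, 13.1, 10.1 and 18.3 at 24 h, 4.23, 2.38 and 3.65 in KO#2 at 0 h and 38.4, 20.5 and 19.4 at 24 h. For this neuronal pentraxin KO#2 was below wt cells at 0 h and above them at 24 h in every library, with 3.96 ± 0.48 (adjusted p = 0.000517). Ngfr, the low-affinity neurotrophin receptor, had 4.41 ± 0.82 (adjusted p = 0.0130) and Nefm, a neurofilament subunit, 3.19 ± 0.60 (adjusted p = 0.0130), and both were called different between the lines at 0 h only. Sox4, a close relative of Sox11, rose in both lines (1.97 and 2.64) and was not called (0.68 ± 0.42, adjusted p = 0.326).

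Scd1 and Scd2, stearoyl-CoA desaturases that make monounsaturated fatty acids, were named after their values were seen. Scd1 measured 117, 124 and 137 CPM in wt cells at 0 h, 47.6, 47.3 and 55.7 at 24 h, 77.7, 56.3 and 89.7 in KO#2 at 0 h and 198, 153 and 245 at 24 h. Scd2 measured 522, 362 and 499 CPM in wt cells at 0 h, 223, 251 and 331 at 24 h, 221, 174 and 327 in KO#2 at 0 h and 766, 480 and 912 at 24 h. Both were lower in KO#2 than in wt cells at 0 h and higher at 24 h, and neither time overlapped between the lines. Their response differences were 2.74 ± 0.34 (adjusted p = 0.000603) and 2.36 ± 0.45 (adjusted p = 0.0148). The 19 genes of cholesterol synthesis, another lipid pathway, gave 0 calls (5 with an unadjusted p under 0.05, 3 by DESeq2), and 13 rose in wt cells and 15 in KO#2, where 26% and 12.7% of all genes did.

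Xaf1, Tmem44, Lgals1 and Glrx were the reversed rises named by the rule, and rose in wt cells and fell in KO#2. Xaf1 measured 12.8, 13.3 and 10.5 CPM in wt cells at 0 h, 52.4, 89.4 and 44.7 at 24 h, 11.7, 18.7 and 13.3 in KO#2 at 0 h and 3.34, 5.03 and 3.82 at 24 h. Xaf1, an interferon-inducible antagonist of the apoptosis inhibitor Xiap, overlapped between the lines at 0 h and at 24 h was lower in every KO#2 library, with a response difference of -4.19 ± 0.50 (adjusted p = 0.000517). Of 13 genes of antigen presentation and interferon, 0 were called (4 with an unadjusted p under 0.05, 1 by DESeq2) and the median was -0.01. Tmem44 measured 4.59, 5.51 and 7.92 CPM in wt cells at 0 h, 11.2, 14.3 and 10.3 at 24 h, 7.92, 11.6 and 8.73 in KO#2 at 0 h and 2.72, 4.18 and 1.74 at 24 h. Tmem44, a membrane protein of little known function, was lower in every KO#2 library of 24 h, a difference of -2.65 ± 0.45 (adjusted p = 0.00883). Lgals1, the sugar-binding galectin 1, and Glrx, glutaredoxin, had -1.74 ± 0.41 (adjusted p = 0.0401) and -3.15 ± 0.61 (adjusted p = 0.0167). Lgals1 kept its call in 3 of the 12 fits leaving out 1 library and lost it with DESeq2's size factors, with library size only and with thinned counts.

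**Figure D5:**
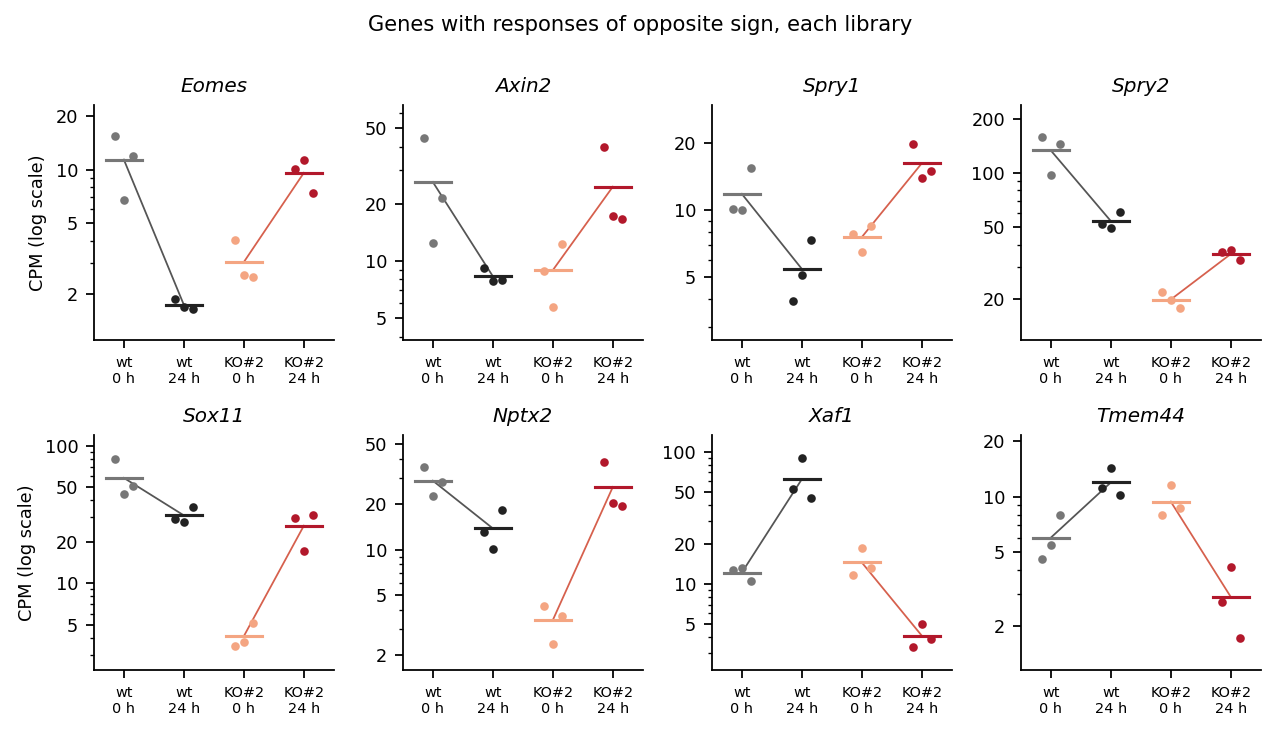
CPM of 8 reversed genes in each of the 12 libraries (points, log axis), with group means as bars and a line joining 0 h and 24 h within each line. Eomes, Axin2, Spry1, Spry2, Sox11 and Nptx2 fell in wt cells and rose in KO#2, and Xaf1 and Tmem44 did the opposite.

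In further genes the wt fall or rise was called and the change in KO#2 had the opposite sign without a call. Notch4, a Notch receptor, fell from 16.3–65.3 to 1.53–2.84 CPM in wt cells and measured 5.71–15.1 and 4.47–19.8 in KO#2, a difference of 4.14 ± 0.75 (adjusted p = 0.0130). Shisa8, Klb and Sema5b had 2.57 ± 0.54 (adjusted p = 0.0225), 2.41 ± 0.55 (adjusted p = 0.0336) and 2.21 ± 0.54 (adjusted p = 0.0490). Klb and Sema5b were not called in the fit on the 12 libraries alone or in thinned counts, and kept their calls in 5 and 1 of the 12 fits leaving out 1 library. Klb, β-klotho, a coreceptor for endocrine FGFs, was higher in KO#2 at both times, from 4.84–9.45 to 7.58–11.6 CPM against 1.31–1.58 to 0.200–0.587 in wt cells.

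Of the 86 genes below 0, 33 rose in wt cells while KO#2 had the opposite sign without a call. Aldh1a3 encodes a retinaldehyde dehydrogenase that makes retinoic acid. Aldh1a3 measured 9.51, 8.35 and 8.17 CPM in wt cells at 0 h, 50.9, 77.0 and 38.5 at 24 h, 6.18, 10.2 and 6.76 in KO#2 at 0 h and 4.70, 7.28 and 7.95 at 24 h. The lines overlapped at 0 h, wt cells rose, and the KO#2 libraries of both times overlapped, with a response difference of -2.90 ± 0.49 (adjusted p = 0.00883). Krt18 measured 3.61, 1.93 and 1.67 CPM in wt cells at 0 h, 18.1, 25.8 and 46.8 at 24 h, 42.5, 79.2 and 7.10 in KO#2 at 0 h and 12.3, 30.0 and 10.5 at 24 h. Krt18, a keratin of simple epithelia, was already high in KO#2 at 0 h, in each library above all wt libraries of 0 h, and the lines overlapped at 24 h, a difference of -5.09 ± 0.94 (adjusted p = 0.0130). Its partner Krt8 had -3.28 ± 1.02 (adjusted p = 0.0917) and was not called.

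Syt13 and Smyd1 followed the pattern of Krt18. Syt13, an atypical synaptotagmin, measured 0–0.643 and 3.70–7.23 CPM in wt cells and 7.19–11.7 and 5.26–7.34 in KO#2, a difference of -4.69 ± 0.77 (adjusted p = 0.00694). Smyd1, a histone methyltransferase of muscle, had -3.39 ± 0.59 (adjusted p = 0.00993). Among blunted rises, Car2, the cytosolic carbonic anhydrase, named after its values were seen, rose from 2.30–3.67 to 61.2–112 CPM in wt cells and from 16.7–27.8 to 68.5–124 in KO#2 (-2.76 ± 0.47, adjusted p = 0.00883). Car4, a membrane-bound carbonic anhydrase, had 0 counts in all wt libraries at 0 h and 31.5, 35.0 and 41.4 CPM at 24 h, at least 71.4-fold higher against a floor of 3 counts per library, while KO#2 rose from 0.122–0.360 to 4.45–12.6 CPM. At 24 h all KO#2 libraries were lower, by 2.19 log2 units (adjusted p = 0.000457), and the response difference of Car4 had an adjusted p of 0.0331. Its call was kept in 4 of the 12 fits leaving out 1 library and lost in the fit on the 12 libraries alone.

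Cdkn1c, the imprinted cell cycle inhibitor p57, was the 1 of 24 imprinted genes called, where 1.47% of all genes were (DESeq2 called 3 of the 24 and 1409 in all). Cdkn1c measured 3.94, 1.47 and 1.5 CPM in wt cells at 0 h, 38.5, 35.8 and 42.5 at 24 h, 3.01, 5.08 and 0.719 in KO#2 at 0 h and 3.24, 5.42 and 8.08 at 24 h. All wt libraries of 24 h stood above the other 9, and the response difference was -3.36 ± 0.75 (adjusted p = 0.0324), which kept its call in 3 of the 12 fits leaving out 1 library. S100a6, a calcium-binding protein named after its values were seen, measured 10.2–23.3 and 137–158 CPM in wt cells and 16.8–31.6 and 37.9–59.4 in KO#2 (-2.34 ± 0.45, adjusted p = 0.0167). Dpep2, a membrane dipeptidase, and Pbld2 had -4.21 ± 0.73 (adjusted p = 0.00924) and -3.81 ± 0.77 (adjusted p = 0.0192). Dpep2 overlaps Dus2 on the other strand and Gm22972 on its own, and whether counting used the strand is not given in the sources used here. Hmga2, Tbx3, Kbtbd11, Pbld2, Cdkn1c, Notch4, Sema5b, Smyd1, Eomes, Loxl2, Tchh, Spry1, Axin2, Bcl3, Pck2, Aldh1l2, Bhlhe40 and Nefm also overlap an annotated gene on the other strand, as do Dnmt3b, Otx2, Tfcp2l1, Ddit3, Sox4, Krt8, Ezh2 and Suz12, so their counts carry the same doubt. Pou3f1 also overlaps a gene on the other strand. Sgcb, Scd2, Klf9 and Emd overlap a gene or microRNA on their own strand. Dcn, decorin, was the 1 of 13 fibroblast markers called in the response difference, at 0 in all wt libraries of 0 h and at 4.45–8.33 CPM at 24 h, at least 11.5-fold higher against the floor, with 3.17–4.54 and 4.57–9.67 CPM in KO#2. The other 12 markers were not called. Of the 13, 9 were above 0 and 3 had an unadjusted p under 0.05, and the median was 1.09.

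Among the genes that rose in KO#2, had no called change in wt cells and had an average log2 CPM of at least 2, Nrros had the largest difference. Nrros measured 1.97, 1.19 and 1.83 CPM in wt cells at 0 h, 0.939, 1.5 and 1.36 at 24 h, 0.691, 1.12 and 0.623 in KO#2 at 0 h and 14.6, 7.93 and 24.8 at 24 h. The KO#2 libraries of 24 h stood above the other 9 of wt cells and KO#2, in a gene whose product tethers latent TGF-β, and the response difference was 4.63 ± 0.68 (adjusted p = 0.00356). E2f2, a cell cycle transcription factor, had 2.64 ± 0.60 (adjusted p = 0.0343), Tchh, trichohyalin, 2.53 ± 0.52 (adjusted p = 0.0201) and Tmem106a 2.03 ± 0.50 (adjusted p = 0.0470). These rises were not shown to be particular to KO#2. Nrros measured 8.38, 10.3 and 13.8 CPM in KO#1 at 24 h, within the range of KO#2, from 0.626–2.74 at 0 h, and the response differences of KO#1 from wt cells were 2.88 ± 0.67 (adjusted p = 0.0682) for Nrros, 2.50 ± 0.61 (adjusted p = 0.0820) for E2f2, 2.05 ± 0.53 (adjusted p = 0.105) for Tchh and 1.62 ± 0.51 (adjusted p = 0.205) for Tmem106a. No difference between the clones was called for these 4. Bdh2, Loxl2, Sgk1 and Sgcb were the falls of this kind at or above the same level, and no difference between the clones was called for them either. Sgk1, a kinase induced by serum and glucocorticoids, went from 183–299 to 91.5–115 CPM in KO#2 and from 111–123 to 132–222 in wt cells (-1.77 ± 0.38, adjusted p = 0.0266). Loxl2, a collagen crosslinking enzyme, had -2.39 ± 0.53 (adjusted p = 0.0305), Bdh2, a cytosolic dehydrogenase, -2.66 ± 0.56 (adjusted p = 0.0231) and Sgcb, a sarcoglycan, -1.72 ± 0.42 (adjusted p = 0.0490). Sgk1, Loxl2 and Sgcb were not called when scaled by library size only, and Sgcb kept its call in 3 of 9 other settings. Over the 12 fits leaving out 1 library, Sgcb kept its call in 1 and Tmem106a in 2, and neither was called in the fit on the 12 libraries alone.

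Several lists that the study's theme makes relevant had no called member. Of 12 PRC2 genes 0 were called (3 with an unadjusted p under 0.05, 2 by DESeq2), with Ezh2 at -0.14 ± 0.34 (adjusted p = 0.821) and Suz12 at 0.35 ± 0.30 (adjusted p = 0.484), and of 13 nuclear envelope genes 0 (5 with an unadjusted p under 0.05, 3 by DESeq2), with Lmnb1, lamin B1, at 1.43 ± 0.45 (adjusted p = 0.0937) and Emd, emerin, at -0.32 ± 0.64 (adjusted p = 0.789). All 13 primitive endoderm genes were above 0 with a median of 1.27 and 0 calls (6 with an unadjusted p under 0.05, 3 by DESeq2), and 11 of them were called higher in KO#2 at 24 h, where 21.3% of all genes were. All 8 two-cell-like genes, the Zscan4 family and others, were below 0 with a median of -1.80 and 0 calls (3 with an unadjusted p under 0.05, 3 by DESeq2). Of 14 germline genes held off by DNA methylation, 10 rose in wt cells (26% of all genes did) and 7 in KO#2 (12.7% did), with 0 calls (1 with an unadjusted p under 0.05, 0 by DESeq2) and a median of -0.55. Glycolysis had 0 calls of 17 (4 with an unadjusted p under 0.05, 2 by DESeq2) and a median of 0.41, p53 targets 0 of 12 (6 and 2) and -0.64, and genes of the mitochondrial genome 0 of 13 (2 and 0) and -0.31. The 12 abundant noncoding RNAs were all below 0 as well, with a median of -2.05 and 0 calls (9 with an unadjusted p under 0.05, 6 by DESeq2), and 10 of them were called lower in KO#2 at 24 h, where 16% of all genes were.

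The responses of KO#2 and KO#1 were set against each other to see where the clones differed. At 24 h protein-coding genes held 41.3 to 63.1% of the counts in KO#1 and 82.3 to 84.7% in KO#2. The 12 abundant noncoding RNAs held 25.1 to 42.1% and 5.52 to 9.40%. Fibroblast markers summed to 58.9 to 73.7 and 106 to 302 CPM. The part of these differences in the calls between the clones was not tested. The differences of both clones from wt cells share the 6 wt libraries. Each gene's values are therefore given side by side and the clones were tested directly. The test between the clones called 40 genes (0.241%), 13 higher (0.0782%) and 27 lower (0.162%) in KO#2, and KO#1 against wt cells called 65 (0.391%), 42 above 0 (0.253%) and 23 below 0 (0.138%). The test between the clones shares the 6 KO#2 libraries with the difference from wt cells, so a gene called in both with one sign has not been called on independent samples.

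Among the amino acid response genes, Chac1 had a response difference of 3.58 ± 0.54 in KO#2 and of -0.26 ± 0.56 (adjusted p = 0.931) in KO#1, and the clones differed by 3.84 ± 0.56 (adjusted p = 0.0106). The clones also differed for the list members Adm2 (4.38 ± 0.84, adjusted p = 0.0407), Slc1a4 (2.19 ± 0.44, adjusted p = 0.0458) and Vldlr (3.43 ± 0.69, adjusted p = 0.0458), the last not called against wt cells. Vegfa, outside the list, differed between them by 3.07 ± 0.46 (adjusted p = 0.0106). For the 10 called genes of that list, the KO#1 differences from wt cells ran from -0.54 to 1.03 and none was called. The naive genes gave no call between the clones. Tbx3 had 4.21 ± 0.66 in KO#2 and 2.55 ± 0.65 (adjusted p = 0.0970) in KO#1, and the clones differed by 1.66 ± 0.63 (adjusted p = 0.243). Klf5 had 3.21 and 2.35, Klf4 2.94 and 0.96, with adjusted p between the clones of 0.549 and 0.162.

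Genes named above with a value below 0 that were also called between the clones were Krt18 (-4.66 ± 0.90, adjusted p = 0.0407), Aldh1a3 (-2.57 ± 0.49, adjusted p = 0.0407), S100a6 (-2.46 ± 0.45, adjusted p = 0.0407), Lgals1 (-2.21 ± 0.41, adjusted p = 0.0407) and Tmem44 (-4.12 ± 0.46, adjusted p = 0.000594). Aldh1a3 measured 61.0, 66.0 and 25.9 CPM in KO#1 at 24 h, above all KO#2 libraries. The response of Scd2 was higher in KO#2 than in KO#1 by 2.22 ± 0.45 (adjusted p = 0.0458). By contrast, Sox11 had 3.56 ± 0.38 (adjusted p = 0.000389) in KO#2 and 3.11 ± 0.41 (adjusted p = 0.00359) in KO#1, Spry2 2.14 ± 0.35 (adjusted p = 0.00694) and 2.59 ± 0.35 (adjusted p = 0.00359), and Spry1 2.23 ± 0.40 (adjusted p = 0.0130) and 2.23 ± 0.41 (adjusted p = 0.0291). For these genes no difference between the clones was called (Sox11 0.45 ± 0.42, Spry2 -0.45 ± 0.35, Spry1 0.00 ± 0.41), which does not show that they respond alike. Smyd1 (-4.42 ± 0.60, adjusted p = 0.00359) and Sgk1 (-1.98 ± 0.38, adjusted p = 0.0300) were called in KO#1 against wt cells too. So were Shisa8 (2.99 ± 0.54, adjusted p = 0.0244) and Bhlhe40 (2.26 ± 0.43, adjusted p = 0.0297).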

How the data were processed

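RNA was sequenced from 18 libraries, of which the 12 of wt cells and KO#2 entered the contrast. The authors deposited raw gene counts for 45706 Ensembl genes. Their methods describe a stranded total RNA kit, paired-end reads, rRNA removal and alignment with STAR to the Ensembl GRCm38 genome in an nf-core pipeline, with DESeq2 named for testing. The counter's strand setting is not given in the sources used here. Genes were kept by filterByExpr with a minimum count of 10 and fitted with edgeR 4.0.16 (R 4.3.3) as 1 mean per group over all 18 libraries, with TMM factors and the quasi-likelihood F-test. P-values were adjusted by the Benjamini-Hochberg method over the 16619 genes kept, and 0.05 was the threshold. Standard errors are the log2 fold change divided by the root of F. CPM values use the TMM library sizes. With 3 replicates per group, p-values measure the spread between cultures of a single clone each.

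A called gene was blunted if its wt change was called and KO#2 moved the same way by less, opposite if the signs differed (reversed if KO#2's change was called too), and KO#2 only if the wt change was not called. Within each class and direction, up to 4 genes with the largest difference and an average log2 CPM of at least 2 are named, and so are called members of 22 gene lists. All other named genes were chosen after their values were seen. The comparison, the genes and the lists were chosen with earlier results of these data known. Positions come from GENCODE M21 and promoters from RefSeq. The script was tested on simulated counts. DESeq2 1.42.0, other scalings and filters, thinned counts, a replicate block, GC offsets and fits without single libraries were run as alternatives. Columns of the authors' own comparisons, fold changes and p-values among them, were not used.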

Additional observations from a re-analysis of the deposited data

Results flagged for a closer look

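The responses of the lines differed by a test of the difference itself in 244 genes for KO#2 against wt cells and in 40 genes for KO#2 against KO#1. Both tests use the 6 KO#2 libraries and are not independent. KO#1 libraries of 24 h held a larger share of abundant noncoding RNA than those of KO#2, and its part was not tested. In the same edgeR fit, the response was higher in KO#2 than in KO#1 by 4.38 on the log2 scale for Adm2, 3.84 for Chac1, 3.07 for Vegfa, 2.22 for Scd2 and 2.19 for Slc1a4. The difference was -4.66 for Krt18, -4.12 for Tmem44, -2.57 for Aldh1a3, -2.46 for S100a6 and -2.21 for Lgals1. Adm2 was near the detection level at 24 h. The groups hold 3 libraries each, so single libraries were not tested as outliers.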

How the results depend on the processing

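The count of 244 genes, with 147 blunted, 83 of opposite direction and 14 changed in KO#2 only, depended on the processing. Scaled by library size only, the counts were 801, 542, 211 and 39, with 197 of the 244 genes kept, 94.4% of calls above 0 and an all-gene median of 0.57. The DESeq2 Wald test gave 1409, 843, 411 and 120. Without a filter on low counts they were 1717, 1050, 516 and 118, with 53.6% above 0. Protein-coding genes alone gave 469, 292, 138 and 37, with 80.0% above 0. Libraries thinned to the smallest total gave 120, 61, 52 and 7. An adjusted p under 0.01 left 32, 15, 16 and 1. Offsets corrected for GC content, chosen after seeing the data, gave 432, 247, 144 and 40. DESeq2's size factors, at least 10 counts in every library, the 12 libraries alone and a minimum log2 difference of 1 moved none of these counts by over 1.5 times.

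Leaving out 1 library at a time, the counts ran from 51 to 563, from 27 to 348, from 20 to 190 and from 3 to 22. The 72 called genes followed through the alternatives were refitted in 1556 pairs of gene and setting. In 1193 of these the call and direction were kept, and in 0 the direction changed. Of these genes, calls were lost in numbers from 3 without KO#2 24 h replicate 3 to 47 without KO#2 0 h replicate 2, with 44 lost without wt 24 h replicate 2.

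Replicate numbers are shared by the groups. Over 12 pairs of same-numbered libraries the deviations from the group means correlated between -0.196 and 0.457, 5 pairs exceeded 0.1, and 4 of 12 libraries correlated best with their own number, so the numbers were not taken as pairs. A fit with the replicate number as a block called 447 genes, 237 of the 244 among them, with 245 blunted, 177 opposite, 24 in KO#2 only and 53.5% above 0. Of the 72 genes, Aldh1l2 and Tmem106a were not called with the block. The wt libraries at 0 h were the shallowest, so genes near 1 CPM there have the widest errors. The cause of these shifts was not tested.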
